A study of Mus musculus with 9 samples.

Results

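The 8 genes described here are immediate early genes: the NR4A nuclear receptors Nr4a1, Nr4a2 and Nr4a3, the EGR zinc finger factors Egr1, Egr2 and Egr3, and the immediate early response genes Ier2 and Ier3. They were taken by symbol from a table of 16876 genes. All 8 were found, and all 8 were among the 12212 genes that passed the filter on low counts. The libraries hold poly-A RNA of natural killer (NK) cells that were cultured out of femoral bone marrow of C57BL/6 mice, an inbred strain. They were grown with IL-7, Flt3L, SCF and IL-15 and then matured with IL-15 and IL-2, so every group carried these cytokines. Ctrl cells had no further treatment (n = 3), TGFb cells had TGF-β1 at 5 ng/mL for 3 h (n = 3), and SIS3_TGFb cells had the same TGF-β1 treatment after 3 h with 10 µM of SIS3, an inhibitor of Smad3 (n = 3). The last 2 groups are the T and SIS groups of the labels. No group used here had SIS3 without TGF-β1, and the labels name no solvent control. They do not say either whether replicates were separate mice or separate cultures. The p-values therefore rest on the spread among the libraries, which may be technical. For SIS3_TGFb the sample titles mention only SIS3, while the treatment protocol gives TGF-β1 as well.

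Immediate early genes are switched on by signals that reach transcription factors already present in the cell, without new protein synthesis, and their transcripts are short-lived. In lymphocytes the calcium and ERK pathways downstream of activating receptors and cytokines drive them through SRF, CREB, MEF2 and NFAT. NR4A proteins are orphan nuclear receptors with no known natural ligand that must be made to act, and in T cells they are linked to restrained effector function. EGR proteins bind GC-rich DNA and are held back by the NAB corepressors. TGF-β is a cytokine that dampens NK cell function, and Smad3 is a transcription factor that its receptor activates.

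The RefSeq promoter table (GRCm38.p6, 300 bases a window, from 250 before to 50 after the start site) matched 5 of the 8 members by symbol, and not Egr1, Egr3 or Ier2. The 3 NR4A windows are shown because these paralogs moved in different directions in SIS3_TGFb versus Ctrl. All 3 hold the core of the cAMP response element (CRE), and no link between this core and the changes was tested. The Egr2 window is shown because it holds both this core and the SRF site. All are printed 5′ to 3′ on the gene's strand, with every TGACG or CGTCA (the same motif on the other strand) and every CArG box in capitals. Nr4a1 and Nr4a2 are given up to the start site, in 250 bases that hold no GENCODE exon of the gene; the Nr4a1 stretch lies inside the RefSeq span of the gene, which has an earlier start. Another RefSeq start of Nr4a3 or Egr2 lies in or just before its window, so only a stretch of 30 bases with the most matches is given for each. The Nr4a3 stretch crosses the RefSeq start of the gene at 48045078. Bases after that start, in the stretch and in the full window, may be exonic. Egr2 has 5 windows in the table, and the one whose start site is that of the GENCODE transcript used for its length was taken. The regions are chr15:101266596-101266845 (plus strand) for Nr4a1, chr2:57124004-57124253 (minus strand) for Nr4a2, chr4:48045067-48045096 (plus strand) for Nr4a3 and chr10:67537789-67537818 (plus strand) for Egr2.
Nr4a1: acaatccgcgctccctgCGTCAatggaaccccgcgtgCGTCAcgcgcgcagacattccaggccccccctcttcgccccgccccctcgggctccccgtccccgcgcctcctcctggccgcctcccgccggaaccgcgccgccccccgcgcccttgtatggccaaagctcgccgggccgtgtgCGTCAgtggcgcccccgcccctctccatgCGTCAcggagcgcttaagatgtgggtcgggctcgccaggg
Nr4a2: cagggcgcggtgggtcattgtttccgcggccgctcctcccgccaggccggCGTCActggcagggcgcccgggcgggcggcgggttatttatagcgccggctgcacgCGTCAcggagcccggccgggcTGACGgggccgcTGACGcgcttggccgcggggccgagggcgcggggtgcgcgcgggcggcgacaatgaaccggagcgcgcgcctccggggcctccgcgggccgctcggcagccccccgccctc
Nr4a3: aggagggTGACGtagcgtcccatgtCGTCA
Egr2: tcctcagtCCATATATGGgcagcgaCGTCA

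In the full windows the motif TGACG, read on both strands, stood 4 times in each of Nr4a1, Nr4a2 and Nr4a3, 2 times in Egr2 and 0 times in Ier3. Of all 32851 windows of that length, 20.8% held it at least once, 5.01% at least 2 times and 0.231% at least 4 times. The full CRE, TGACGTCA, which would be counted as 2 overlapping cores, was in none of the 5 windows and in 1.79% of all. The CArG box, the site of SRF, was found in Egr2 alone of the 5 and in 1.63% of all windows. The EGR site GCGNGGGCG stood in the windows of Nr4a1 and Nr4a2 and in 5.55% of all, and it overlapped no TGACG. The NR4A site AAAGGTCA, the SMAD palindrome GTCTAGAC and the AP-1 site TGANTCA were in none of the 5 windows and in 1.51%, 0.213% and 7.81% of all. At these shares most windows lack each site, so absence from 5 windows says little. Shorter parts of the SMAD palindrome were not searched. The windows of Nr4a1 (72.3%), Nr4a2 (81.7%), Nr4a3 (64.7%) and Egr2 (60%) were richer in G and C than the median of all windows (52.7%). Ier3, at 54%, was near that median. The motif shares over all windows were not matched for G and C content. These matches describe letters in a window and do not show binding.

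**Figure D1:**
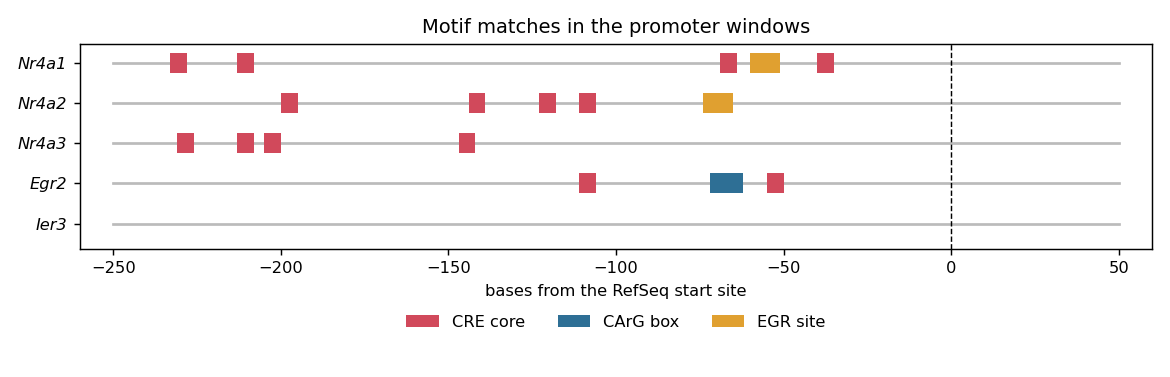
Positions of motif matches in the 300-base promoter windows of the 5 matched genes, in bases from the RefSeq start site (dashed line, 0). Red bars mark TGACG on either strand, blue the CArG box and yellow the EGR site. The 3 NR4A windows hold 4 red bars each, Egr2 holds 2 and the only blue bar, and Ier3 has no mark.

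The 9 libraries held 15714973 to 16718673 expected counts. NK markers led: the 14 in the list, among them Ncr1, Gzmb and Prf1, summed in Ctrl to 20723 to 21838 CPM (a gene's share of the library total, scaled with TMM factors), 15863 to 17290 in TGFb and 17233 to 17466 in SIS3_TGFb, and all 14 were detected. Other cells of a marrow culture left transcripts too. All 14 macrophage and monocyte markers, led by Lyz2, were detected and summed to 1822 to 2190 CPM in Ctrl, 1165 to 1545 in TGFb and 1210 to 1760 in SIS3_TGFb. The 11 dendritic cell markers summed to 582 to 818, 466 to 743 and 528 to 916 CPM, and the 10 of 11 mast cell and basophil markers in the table to 614 to 638, 575 to 642 and 555 to 653 CPM. The 9 of 10 neutrophil markers in the table, nearly all Ctsg, summed to 266 to 304, 240 to 252 and 223 to 236 CPM. The sums of the 7 of 10 T cell markers in the table (8.05 to 22.4 CPM over all libraries) and of the 5 of 6 B cell markers (0.406 to 1.72 CPM) were low. No marker in the table was at 0 in every library. TGFb replicate 3 and SIS3_TGFb replicate 3 stood apart from their groups: counts of replicate 3 differed from those of each other replicate by 4.22 to 5.23 times the variance of random sampling, against 1.62 to 2.07 between the other 2 replicates of these groups. For the members, values without these libraries follow the single genes.

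Per kilobase of transcript, Ier3 was the most abundant member in Ctrl (43.8 ± 0.86 CPM per kb, SD, n = 3), followed by Nr4a2 (29.3 ± 3.21), Nr4a3 (22.4 ± 0.42), Ier2 (18.8 ± 0.865) and Egr1 (7.4 ± 0.282). Egr3 (1.8 ± 0.226) and Egr2 (1.76 ± 0.303) overlapped, and Nr4a1 was lowest (0.727 ± 0.0865). The other neighbours in this order had no libraries that overlapped. In TGFb the top of the order was Ier2, Nr4a2 and Ier3, at 24, 20.9 and 20.3 CPM per kb, whose neighbours overlapped. In SIS3_TGFb Ier2 stood alone at the top (32.3 ± 1.19), Egr1, Ier3 and Nr4a3 followed at 16.3, 16.2 and 14.5, each overlapping the next, and Nr4a2 came after them at 7.5 ± 0.788.

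Below, rose and fell mean that a gene passed the quasi-likelihood test of edgeR, with an adjusted p under 0.05 over all 12212 genes. Changes are log2 fold changes with the SE after ±. In TGFb versus Ctrl, which asked what 3 h of TGF-β1 did, Egr1, Egr2, Egr3 and Ier2 rose, Nr4a2, Nr4a3 and Ier3 fell, and Nr4a1 did not pass, so 7 of 8 members were called where 34.3% of all genes were (17.9% higher, 16.4% lower). With SIS3 before TGF-β1, against TGF-β1 alone, Nr4a1 and Ier2 rose, Nr4a2, Nr4a3, Egr3 and Ier3 fell, and Egr1 and Egr2 did not pass, 6 of 8 where 41.8% of all genes were called (21.2% higher, 20.6% lower). In SIS3_TGFb versus Ctrl all 8 were called, 5 higher and 3 lower, where 53.9% of all genes were (29% higher, 24.9% lower). The libraries of the compared groups did not overlap for 7, 6 and 8 members, against 45%, 51.4% and 61.1% of all genes. These comparisons share libraries, so their counts are not independent of each other. The members' median log2 change was 0.36, -0.24 and 0.59 in this order, and its median size without regard to sign was 0.72, 0.38 and 0.91, against 0.16, 0.18 and 0.24 over all genes. The calls over all genes were 52.2% upward in TGFb versus Ctrl (41.3% with upper-quartile factors) and 50.6% upward in SIS3_TGFb versus TGFb (71.1% without scaling factors). No member's call changed under either scaling.

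**Figure D2:**
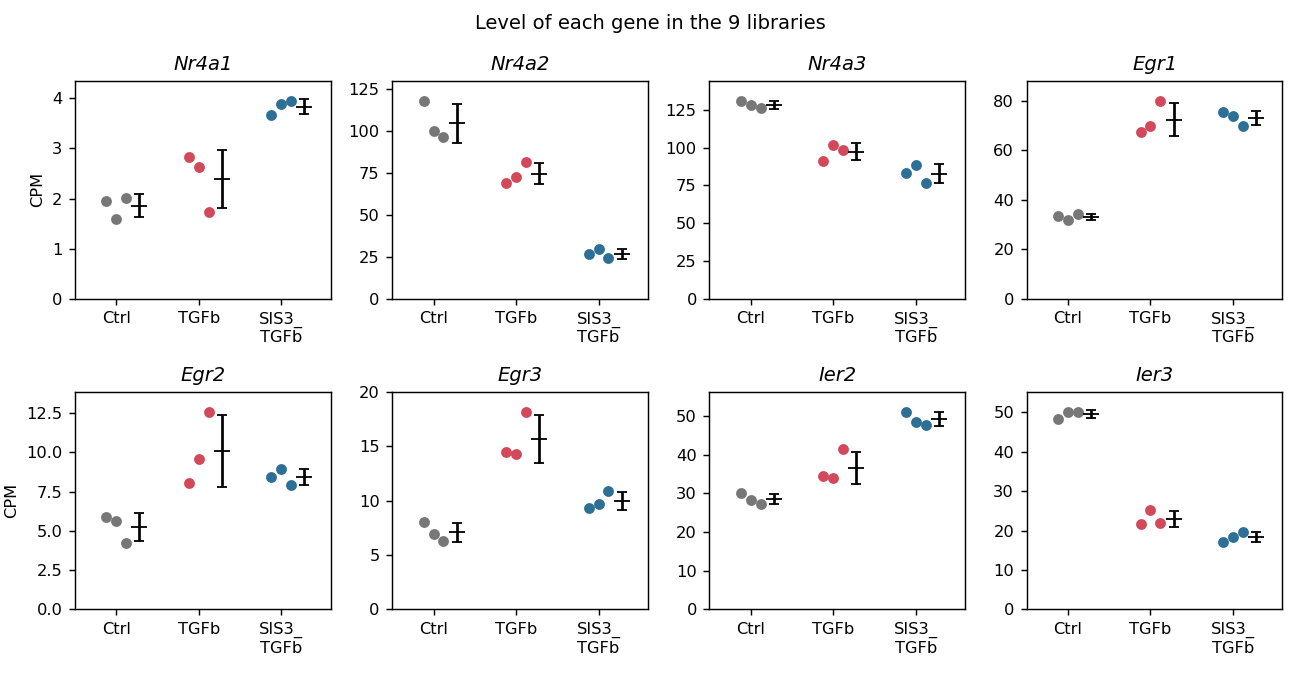
CPM (y axis, from 0, a separate scale for each gene) of the 8 genes in every library of Ctrl (grey), TGFb (red) and SIS3_TGFb (blue), with the mean and SD of each group in black (n = 3). Nr4a2 steps down from a mean of 105 to 74.4 to 26.8 CPM, and Egr1 goes from 33.2 to 72.4 and 73.1 CPM.

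Nr4a2, also called Nurr1 (Entrez 18227, chromosome 2, 57106830 to 57124003 in GRCm38.p6, 8 exons), had the largest change among the members in either SIS3 comparison. It stood at 118, 99.8 and 96.2 CPM in the Ctrl libraries, 69.1, 72.8 and 81.3 CPM in TGFb and 26.5, 29.7 and 24.1 CPM in SIS3_TGFb. The 3 groups were fully separate, each lower than the one before. TGF-β1 lowered it to 0.711 of its Ctrl level (-0.49 ± 0.078, adjusted p = 0.000111). SIS3 before TGF-β1 lowered it further, to 0.36 of the level with TGF-β1 alone (-1.47 ± 0.089, adjusted p = 4.86e-09). That fall ranked 10 from the lowest of 12212 genes. Against Ctrl the level under SIS3 was 3.91-fold lower (-1.97 ± 0.086, adjusted p = 2.93e-11), rank 18 from the lowest.

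Nr4a3, also called NOR-1 (Entrez 18124, chromosome 4, 48045078 to 48086447, 8 exons), moved the same way in smaller steps. It stood at 131, 128 and 126 CPM in Ctrl, 91, 102 and 98.7 CPM in TGFb and 83.1, 88.7 and 76.6 CPM in SIS3_TGFb, again with no overlap between groups. It fell by 0.4 (SE 0.052) on the log2 scale with TGF-β1 (adjusted p = 1.46e-05). SIS3 took it down by a further log2 of -0.23 ± 0.053 (adjusted p = 0.00257), to 0.852 of the level with TGF-β1 alone. Without scaling factors this step was -0.15 (adjusted p = 0.0286). Against Ctrl it was 1.55-fold lower under SIS3 (-0.63 ± 0.052, adjusted p = 5.16e-08).

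Nr4a1, also called Nur77, which is widely used as a reporter of antigen receptor signalling (Entrez 15370, chromosome 15, 101253902 to 101274795, 8 exons), was scarce and went up. Its values were 1.96, 1.6 and 2.01 CPM in Ctrl, 2.83, 2.62 and 1.73 CPM in TGFb and 3.66, 3.89 and 3.95 CPM in SIS3_TGFb, from 26 to 68 expected counts a library. TGFb replicate 3 lay within the Ctrl range and the other TGFb libraries above it, while all SIS3_TGFb libraries were higher than every other library. The difference between TGFb and Ctrl did not pass (0.37 ± 0.22, 95% interval -0.09 to 0.84, adjusted p = 0.211), and the change ran from 0.24 to 0.55 when 1 library was left out. Under SIS3 it was 1.59-fold higher than with TGF-β1 alone (0.67 ± 0.19, adjusted p = 0.0117), but leaving out TGFb replicate 3 ended that call (0.49, with 0.0504 as its adjusted p in edgeR). Against Ctrl it was 2.06-fold higher (1.04 ± 0.2, adjusted p = 0.000408).

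Summed per kilobase, the 3 NR4A genes came to 52.5 ± 3.61 CPM per kb in Ctrl, 38.8 ± 2.18 in TGFb and 23.5 ± 1.85 in SIS3_TGFb. The family changed in make-up in the last group. Nr4a2 held 54.2% to 58.3% of the sum in Ctrl, 52% to 55.9% in TGFb and 31.1% to 32.8% in SIS3_TGFb. Nr4a3 held 40.4% to 44.2%, 42.4% to 45.4% and 61.2% to 62.1%, and Nr4a1, at 1.23% to 3.05% in the libraries without SIS3, came to 6.02% to 7.13%. Shares of 1 sum move against each other by construction.

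**Figure D3:**
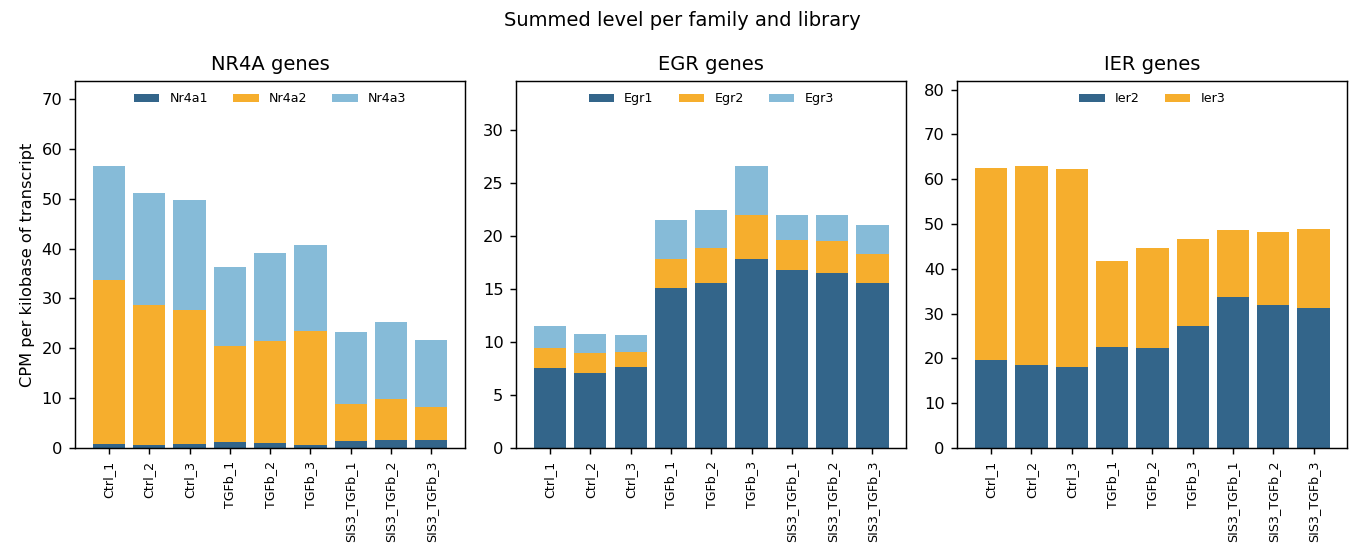
Bars give the summed level of each family in each library, in CPM per kilobase of transcript from 0, split by gene, with a separate y axis for each family. The NR4A sum is 49.8 to 56.6 in Ctrl and 21.7 to 25.4 in SIS3_TGFb, the EGR sum 10.6 to 11.5 in Ctrl and 21.1 to 26.7 in the groups with TGF-β1, and Ier2 makes up 29% to 31.5% of the IER bars in Ctrl, 49.9% to 58.3% in TGFb and 64.2% to 69% in SIS3_TGFb.

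Egr1, a zinc finger factor also known as Krox-24 (Entrez 13653, chromosome 18, 34861207 to 34864956, 2 exons), was the most abundant EGR gene. It was at 33.6, 31.7 and 34.1 CPM in Ctrl, 67.5, 69.8 and 80 CPM in TGFb and 75.3, 74 and 70 CPM in SIS3_TGFb. Every library with TGF-β1 was above every Ctrl library, and the groups with and without SIS3 overlapped. TGF-β1 raised it 2.18-fold (1.13 ± 0.063, adjusted p = 9.43e-10). SIS3 before TGF-β1 left a difference of 0.01 ± 0.058 from TGF-β1 alone, with a 95% interval of -0.11 to 0.14 (adjusted p = 0.867). Against Ctrl the rise under SIS3 was 2.2-fold (1.14 ± 0.063, adjusted p = 4.2e-10).

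Egr3, which with Egr2 is known for limiting lymphocyte activation (Entrez 13655, chromosome 14, 70077317 to 70082613, 2 exons), rose with TGF-β1 and fell in the SIS3 step. It stood at 8.07, 6.9 and 6.33 CPM in Ctrl, 14.5, 14.3 and 18.2 CPM in TGFb and 9.33, 9.7 and 10.9 CPM in SIS3_TGFb. The SIS3_TGFb libraries lay between the other groups, touching neither. TGF-β1 raised it 2.2-fold (1.14 ± 0.12, adjusted p = 2.04e-06). SIS3 lowered it to 0.639 of the level with TGF-β1 alone (-0.65 ± 0.12, adjusted p = 0.000372), and it was 1.4-fold above Ctrl (0.49 ± 0.13, adjusted p = 0.0044).

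Egr2, or Krox-20 (Entrez 13654, chromosome 10, 67534469 to 67542188, 2 exons), was at 5.87, 5.61 and 4.2 CPM in Ctrl, 8.06, 9.58 and 12.6 CPM in TGFb and 8.45, 8.95 and 7.95 CPM in SIS3_TGFb. Its TGFb libraries spread more widely than those of the other groups and overlapped SIS3_TGFb. It rose with TGF-β1 1.92-fold (0.94 ± 0.17, adjusted p = 0.000302). The SIS3 difference did not pass (-0.25 ± 0.15, 95% interval -0.58 to 0.08, adjusted p = 0.214) and was -0.06 without TGFb replicate 3. Against Ctrl it was 1.62-fold higher under SIS3 (0.69 ± 0.17, adjusted p = 0.00241). The EGR sum was 10.9 ± 0.493 CPM per kb in Ctrl, 23.5 ± 2.78 in TGFb and 21.7 ± 0.52 in SIS3_TGFb, of which Egr1 made up 65.1% to 71.6%, 66.8% to 70.2% and 74.2% to 76.3%. Egr4, the remaining gene of the family, was filtered out, with at most 0.061 CPM in any library.

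TGFb replicate 3 had the highest value of its group for Egr1, Egr2, Egr3, Ier2 and Nr4a2 and the lowest for Nr4a1. The 7 calls in TGFb versus Ctrl held without it, with smaller rises of Egr1 (1.05), Egr2 (0.76), Egr3 (1.02) and Ier2 (0.26, from 0.35). In the SIS3 step without it, the log2 change was -1.41 for Nr4a2, -0.22 for Nr4a3, -0.53 for Egr3 and 0.52 for Ier2. That library also had the lowest macrophage sum (1165 CPM) and dendritic cell sum (466 CPM) of the 9. The part of these in the result was not tested.

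Ier2, a nuclear protein induced by growth factors (Entrez 15936, chromosome 8, 84661331 to 84662852, 1 exon), rose at each step. Its libraries stood at 30, 28.3 and 27.4 CPM in Ctrl, 34.4, 33.9 and 41.5 CPM in TGFb and 51.2, 48.6 and 47.7 CPM in SIS3_TGFb. The groups did not overlap, in rising order. The rise was 1.28-fold with TGF-β1 (0.35 ± 0.074, adjusted p = 0.0014). With SIS3 it was a further 1.34-fold (0.43 ± 0.07, adjusted p = 0.000164), which came to 1.72-fold against Ctrl (0.78 ± 0.072, adjusted p = 1.76e-07).

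Ier3, also called IEX-1, a stress-induced regulator of cell survival (Entrez 15937, chromosome 17, 35821713 to 35822911, 2 exons), went the other way. It stood at 48.4, 50.2 and 50 CPM in Ctrl, 21.7, 25.3 and 22 CPM in TGFb and 17.1, 18.3 and 19.7 CPM in SIS3_TGFb. Ctrl was far above both other groups, whose libraries came close without overlap. TGF-β1 lowered it 2.15-fold (-1.11 ± 0.068, adjusted p = 2.37e-09), rank 110 from the lowest of all genes tested. SIS3 lowered it to 0.798 of the level with TGF-β1 alone (-0.33 ± 0.075, adjusted p = 0.00264), and against Ctrl it was 2.7-fold lower (-1.43 ± 0.069, adjusted p = 8.32e-11). Together Ier2 and Ier3, which are not paralogs, came to 62.6 ± 0.351 CPM per kb in Ctrl, 44.4 ± 2.46 in TGFb and 48.5 ± 0.379 in SIS3_TGFb.

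Ier3, Nr4a2 and Nr4a3 were lower in TGFb and SIS3_TGFb than in Ctrl, with no overlap with Ctrl. So were the sums of the NK, the macrophage and monocyte, and the neutrophil markers, the last being nearly all Ctsg. In bulk RNA, fewer cells of a type and less RNA per cell cannot be told apart, and the part of these in the falls was not tested. Within SIS3_TGFb, replicate 3 had the highest macrophage sum (1760 CPM against 1284 and 1210) and the lowest Nr4a2 and Nr4a3 and the highest Ier3 of its group. Without that library the same 6 members were called in SIS3_TGFb versus TGFb, with log2 changes of -1.4 for Nr4a2, -0.18 for Nr4a3 and -0.38 for Ier3.

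**Figure D4:**
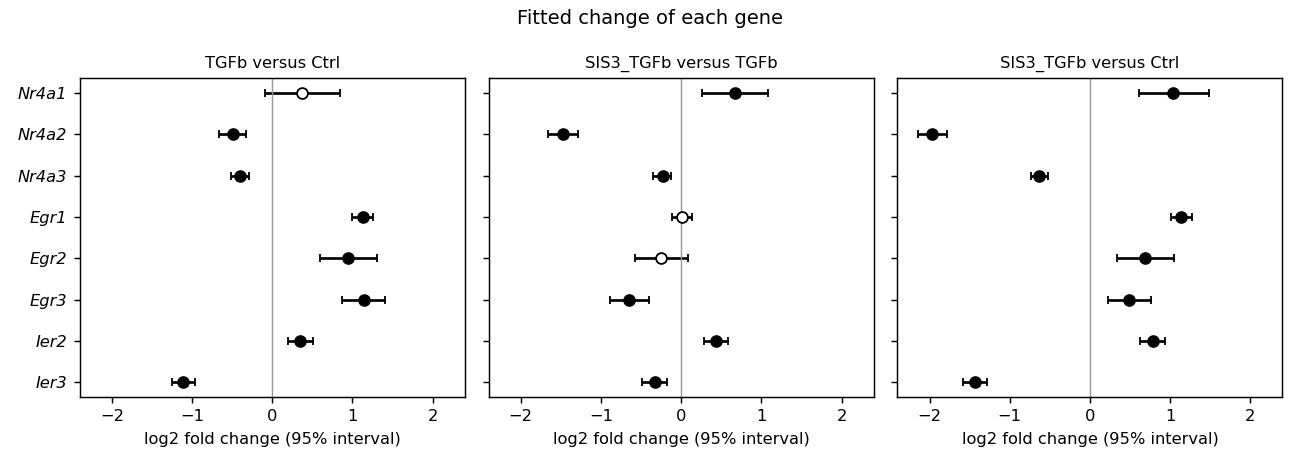
Log2 fold change of each gene (x axis) in the 3 comparisons, with 95% intervals; filled points passed the test and open points did not. The EGR genes lie at 0.94 to 1.14 with TGF-β1, spread from -0.65 to 0.01 in the SIS3 step, and Nr4a2 is lowest in both SIS3 panels.

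**Figure D5:**
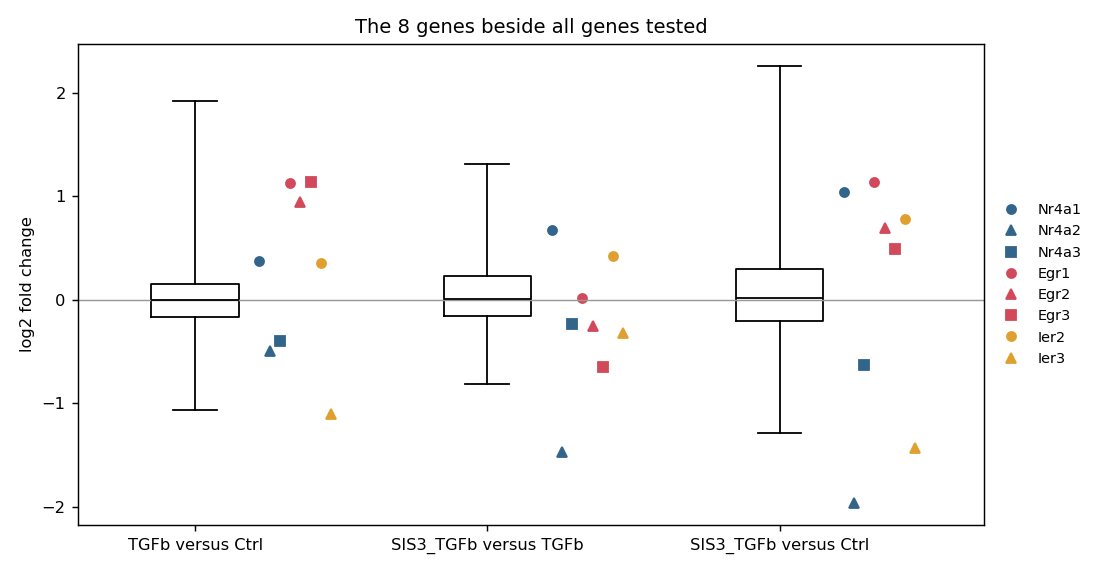
Log2 fold changes of the 8 genes (points) beside all 12212 genes tested (boxes from percentile 25 to 75 with the median, whiskers at percentiles 1 and 99). Ier3 lies beyond the lower whisker in TGFb versus Ctrl and SIS3_TGFb versus Ctrl, and Nr4a2 in both SIS3 comparisons.

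The genes most alike in pattern were found by the root mean square (RMS) difference of centred log2 CPM over the 9 libraries, among 10504 genes. For Nr4a2 these were the cholesterol synthesis gene Hmgcs1 (RMS 0.185) and Spry2, an inhibitor of ERK signalling (0.21). Spry2 went from 103 to 71 to 33.8 CPM over Ctrl, TGFb and SIS3_TGFb. For Nr4a3 they were Gbp9 (0.0444) and the purine synthesis gene Gart (0.0495), and for Nr4a1 Zbtb18 (0.123) and Letm2 (0.139). Egr1 was closest to Rsph3a (0.0475) and Pacsin2 (0.0505), both at about the same level with and without SIS3. Egr2 was closest to Arnt2 (0.132) and Odaph (0.151). Egr3 was closest to Aacs (0.111) and to Smad3 itself (0.123), which went from 4.3 to 9.75 to 5.61 CPM. The nearest to Ier2 were Natd1 (0.0434) and Baiap2 (0.0577). For Ier3 they were Serpinb9, the inhibitor of granzyme B (0.105), and St3gal5 (0.106).

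Other immediate early genes moved in both directions as well. Of 48 on the list 44 were tested, of which 16 rose, 14 fell and 14 did not pass in TGFb versus Ctrl (68.2% called, against 34.3% of all genes, median log2 change 0.09, against 0 for all genes). In SIS3_TGFb versus TGFb 14 rose, 11 fell and 19 did not pass (56.8% called, against 41.8% of all genes, median 0.12, against 0.01), and in SIS3_TGFb versus Ctrl the counts were 21, 9 and 14 (68.2% called, against 53.9%, median 0.22, against 0.02). Egr4, Fosb and Arc were filtered out, at no more than 0.755 CPM in any library. Fos, the classic member of the class, was near absent at 1.48 ± 0.156 CPM in Ctrl, 1.19 ± 0.558 in TGFb and 1.42 ± 0.866 in SIS3_TGFb and passed in no comparison. Jun did not pass with TGF-β1 (0.09 ± 0.053) and fell with SIS3 (-0.18 ± 0.053, adjusted p = 0.0151), a call that was lost without scaling factors (-0.09) and without TGFb replicate 3 (-0.11). Junb rose with TGF-β1 (0.48 ± 0.047) and fell with SIS3 (-0.41 ± 0.047), as did the phosphatase Dusp2 (1.78 ± 0.047 and -0.21 ± 0.044), the small MAF factor Maff (2.06 ± 0.11 and -0.59 ± 0.097) and Trib1 (1.92 ± 0.11 and -0.88 ± 0.1). Myc fell at both steps (-0.97 ± 0.058 and -1.67 ± 0.072), as did the mRNA decay factor Zfp36 (-0.52 ± 0.051 and -0.35 ± 0.054). Klf4 (2.24 ± 0.14, from 3.1 to 14.7 CPM), Klf10 (1.12 ± 0.089) and Ppp1r15a, which restarts translation under stress (1.17 ± 0.05), rose in the SIS3 step. With TGF-β1 Klf10 rose as well (0.48 ± 0.1) and Klf4 did not pass (0.45 ± 0.18). Ppp1r15a fell with TGF-β1 (-0.14 ± 0.054), a call lost with DESeq2 and with limma voom. The ERK phosphatase Dusp5 fell with TGF-β1 (-0.69 ± 0.07) and was not called in the SIS3 step (0.05 ± 0.072), where it passed without TGFb replicate 3 (0.16).

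Genes that EGR factors control or answer to were mixed. With TGF-β1 2 rose, 7 fell and 11 of the 20 did not pass (45% called, against 34.3% of all genes, median -0.12). In the SIS3 step 5 rose, 6 fell and 9 did not pass (55% called, against 41.8%, median -0.02), and in SIS3_TGFb versus Ctrl 6 rose, 10 fell and 4 did not pass (80% called, against 53.9%, median -0.21). The corepressor Nab2, itself a known EGR target, passed in neither (-0.11 ± 0.055 and 0.04 ± 0.055; with upper-quartile factors it fell in the first, at -0.15), at 92.3 ± 7.44 CPM in Ctrl, 85.4 ± 4.04 in TGFb and 87.4 ± 3.07 in SIS3_TGFb. Nab1 fell at both steps (-0.13 ± 0.037 and -0.31 ± 0.038). Bcl6 (1.32 ± 0.11) and Dgkz, a brake on diacylglycerol signalling (0.49 ± 0.047), were the 2 that rose with TGF-β1. The ubiquitin ligase Cblb (-0.57 ± 0.042) and the costimulatory receptor Tnfrsf9 (-0.29 ± 0.041) fell with TGF-β1, and Ndrg1 fell with TGF-β1 (-1.23 ± 0.065) and rose with SIS3 (1.95 ± 0.063). The cell cycle inhibitor Cdkn1a (0.44 ± 0.035) and the adaptor Sh2d1a (0.28 ± 0.055) also rose in the SIS3 step. The death ligand Fasl (-0.23 ± 0.048) and the inhibitory receptor Lag3 (-0.34 ± 0.092) fell there.

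Of 17 tested partners and reported targets of NR4A proteins 4 rose, 5 fell and 8 did not pass with TGF-β1 (52.9% called, against 34.3% of all genes, median -0.15). In the SIS3 step 5 rose, 2 fell and 10 did not pass, and its 41.2% called was near the 41.8% of all genes (median 0.15). Against Ctrl under SIS3 the counts were 6, 5 and 6 (64.7% called, against 53.9%, median 0.09). The inhibitory receptor Havcr2 fell at both steps (-0.44 ± 0.043 and -0.58 ± 0.043), from 1095 to 805 to 539 CPM. Irf4, at only 4.41 ± 0.727 CPM in Ctrl and 1.02 ± 0.137 CPM in TGFb, fell with TGF-β1 (-2.09 ± 0.21), as did the AP-1 factor Batf (-0.44 ± 0.067). The death gene Bcl2l11 (1.1 ± 0.061) and its antagonist Bcl2 (0.17 ± 0.041) rose. In the SIS3 step Stat3 (0.25 ± 0.043) and the Ikaros factor Ikzf2 (0.58 ± 0.13) rose and the cell cycle factor E2f1 fell (-0.27 ± 0.079, and -0.18 with the call lost without scaling factors; the call was also lost without SIS3_TGFb replicate 2, at -0.22, or TGFb replicate 1, at -0.24). Gadd45b, which is also on the list of other immediate early genes, rose at both steps (0.6 ± 0.15 and 1.05 ± 0.13).

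Factors that bind immediate early promoters, and their coactivators, were tested for 20 of 22. With TGF-β1 6 rose, 4 fell and 10 did not pass (50% called, against 34.3% of all genes, median 0.04), and in the SIS3 step 8 rose, 5 fell and 7 did not pass (65% called, against 41.8%, median 0.03). Against Ctrl under SIS3 the counts were 7, 3 and 10, and the 50% called was below the 53.9% of all genes (median 0.08). The calcium-responsive factors changed unlike each other with TGF-β1. Mef2a rose (0.99 ± 0.039) from 153 ± 4.35 to 304 ± 9.93 CPM and Mef2c fell (-1.25 ± 0.069) from 40.2 ± 1.76 to 16.9 ± 0.477 CPM. Nfatc1 (0.51 ± 0.043) and Nfatc2 (0.84 ± 0.057) rose, as did the CREB coactivator Crtc3 (0.49 ± 0.049). Nfatc1 (0.24 ± 0.041) and Crtc3 (0.19 ± 0.046) rose further in the SIS3 step, where Nfatc2 fell (-0.28 ± 0.055). Elk1, an SRF partner that ERK activates, fell at both steps (-0.64 ± 0.065 and -0.27 ± 0.07). Mef2d fell with TGF-β1 (-0.22 ± 0.04) and rose with SIS3 (0.15 ± 0.04). Nfatc3 (0.16 ± 0.038) and the coactivator Crebbp (0.38 ± 0.073) rose in the SIS3 step, and Elk3 fell (-0.19 ± 0.037).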

How the data were processed

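Expected counts per gene (estimated reads, not scaled for depth) were deposited by the authors for 9 libraries in 3 groups of 3. The unit was read from the values, of which 10.2% to 11.1% per library are not whole. The tools listed in the submitters' processing notes are RSEM, Bowtie2, HISAT2, StringTie, Cufflinks and DESeq2, with GRCm38 and mm10 as builds. Which tool made the table, its version and the annotation: not given in the sources used here. Library strand is not stated, and no other GENCODE vM21 gene overlaps a member.

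Counts were rounded, filtered with filterByExpr (minimum count 10, total 15), scaled with TMM factors and fitted with 1 mean per group over all 9 libraries by glmQLFit and glmQLFTest of edgeR 4.0.16 (R 4.3.3), with Benjamini-Hochberg adjustment over 12212 genes. The SE was taken from the log2 change and its F statistic. The test was checked on simulated data. CPM per kb divides by the longest GENCODE protein-coding transcript in the basic set. Alternatives were DESeq2 1.42.0, limma voom (3.58.1), other scaling, no filter, a replicate block and leaving out each library of the compared groups. Members and lists were chosen with earlier results of these data known. Named were all members, up to 3 genes per list, direction and comparison with the smallest p, Fos, Jun, Junb, Myc and Nab2, and the 2 genes nearest to each member in pattern (mean log2 CPM 1 or more, numbered gene models left out). A gene that this rule names is not reported here. Replicates of a group were not identical and differed beyond sampling noise.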

Additional observations from a re-analysis of the deposited data

How the results depend on the processing

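Of 312 refitted log2 changes of the members under the alternatives, 311 kept their side of the threshold and 0 of the called ones changed sign. The exception was Nr4a1 in SIS3_TGFb versus TGFb without TGFb replicate 3 (0.49, adjusted p = 0.0504, with a range of adjusted p over its alternatives of 0.00682 to 0.0504), which took the count of members called there from 6 to 5. The cause was not tested. Leaving out each library of the compared groups in turn gave 7 members called in TGFb versus Ctrl and 8 in SIS3_TGFb versus Ctrl each time. With DESeq2, limma voom, upper-quartile factors, no scaling factors, no filter and only the compared groups, the counts were 7, 6 and 8. Chosen after seeing the data, the same alternatives were run for the gene lists. All 195 list counts stayed within 1.5 times, and of 2028 values of the lists' named genes 1959 kept their side of the threshold, 49 lost a call, 20 gained one and 0 of the called ones changed sign. Calls over all genes ran from 3455 to 4375, 4125 to 5191 and 5705 to 6698 in the 3 comparisons.

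Upward calls in SIS3_TGFb versus Ctrl were 53.8% of all, and 63.8% without scaling factors. With the replicate number as a block, 7, 6 and 8 members and 3942, 4803 and 6346 genes were called. Same-numbered libraries of 2 groups deviated together with correlations of -0.147 to 0.126, and a library's own number was the best match in 5 of 18 cases, so the numbers were not taken to pair the samples. Nr4a1, at 26 to 68 expected counts a library, is the member that depth limits most.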

Other observations

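Kinases and phosphatases of the ERK and calcium pathways, which act upstream of these genes, were measured on a list of 24, all tested. In TGFb versus Ctrl 4 rose, 10 fell and 10 did not pass (58.3% called, against 34.3% of all genes, median log2 change -0.08), and without TGFb replicate 3 the count was 5 higher and 6 lower. In SIS3_TGFb versus TGFb 7 rose, 6 fell and 11 did not pass (54.2% called, against 41.8%, median 0.02), and in SIS3_TGFb versus Ctrl 7 rose, 8 fell and 9 did not pass (62.5% called, against 53.9%, median -0.06). The phospholipase Plcg2, which couples activating receptors to calcium, fell at both steps (-0.35 ± 0.036 and -0.32 ± 0.037), from 207 ± 7.35 to 163 ± 2.31 to 130 ± 2.61 CPM. The kinase Rps6ka1, a target of ERK, rose with TGF-β1 (0.24 ± 0.039) and fell in the SIS3 step (-0.3 ± 0.039), as did Map2k2 (0.34 ± 0.038 and -0.2 ± 0.038) and Mapk3, which encodes ERK1 (0.18 ± 0.042 and -0.26 ± 0.042). In the SIS3 step Braf (0.29 ± 0.049) and the RAS activator Sos1 (0.44 ± 0.062) rose and Nras fell (-0.18 ± 0.038), a call lost without scaling factors (-0.09). The kinases Rps6ka3 (-0.35 ± 0.038) and Prkcq (-0.37 ± 0.062) fell with TGF-β1. Levels of these transcripts do not show the activity of the kinases.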
